A study of Rattus norvegicus and Mus musculus and Macaca mulatta with 84 samples.

Results

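The nuclear genes for subunits of the respiratory chain and of ATP synthase were followed in liver messenger RNA. Members were chosen by gene name from the rat and mouse tables of normalised counts, as the Ndufa, Ndufb, Ndufc, Ndufs and Ndufv genes of complex I, the Sdh genes of complex II, the Uqcr genes of complex III, the Cox4 to Cox8 subunit genes of complex IV and the Atp5 genes of complex V. Names of pseudogenes were left out, 1 in the rat table and 6 in the mouse table. This gave 86 of the 32754 rat gene IDs, with 83 symbols, and 82 of the 48440 mouse gene IDs, or 168 of 81194 in all. Of these, 79 rat and 77 mouse members had a mean of at least 10 normalised counts over their table and were tested. The choice by name leaves out Ndufab1, Cyc1 and Cox4i1, and in the mouse table also the ATPase inhibitor and 1 membrane subunit, which are listed there as Atpif1 and Usmg5. Ndufa4, which is named after complex I, was counted with complex IV, where its protein is known to sit.

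The rats were UCD-T2DM animals, the University of California at Davis strain in which type 2 diabetes develops spontaneously. Liver was taken from diabetic animals 2 weeks (n = 4), 3 months (n = 5) and 6 months (n = 6) after the onset of diabetes, and from prediabetic animals of the same strain (n = 5). The labels give no age or sex for the rats, so age and the duration of diabetes cannot be told apart, and no non-diabetic strain was part of this comparison. The mice were C57BL/6J, with livers from animals given LNA-29, a locked nucleic acid oligonucleotide against the microRNA miR-29 (n = 5), and from control animals (n = 6). The labels state neither the dose nor what the control mice received. For the rats they name separate animals, and for the mice nothing says that the samples are separate animals, so the mouse p-values measure a spread that may be technical. The comparisons asked how liver RNA differed with the stage of diabetes and after inhibition of miR-29.

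Complexes I to IV pass electrons from NADH and succinate to oxygen, and complexes I, III and IV pump protons out of the mitochondrial matrix. Complex V, the ATP synthase, uses the returning protons to make ATP. All complexes but complex II combine subunits made from nuclear genes with a few made from mitochondrial DNA. In liver this machinery oxidises the electrons from fatty acid breakdown and pays for gluconeogenesis, and the nuclear subunit genes are known targets of the transcription factors NRF1, the ETS family member GABP (also called NRF-2) and YY1.

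The promoters of the members were compared for these factors' motifs, because 33 of the 79 tested members fell at 3 months of diabetes. RefSeq windows of 300 bases on GRCr8, from 250 bases before to 50 bases after the start of the gene, were found by symbol for 74 of the 86 rat IDs, in 72 distinct windows. Both strands were searched for GCGCA and GCGC separated by any 1 base (NRF1), CCGGAAG (ETS family) and AANATGGC (YY1), and matches of different motifs overlapped in 0 member windows. The YY1 letters were in 30 of the 72 windows (41.7%), against 7.36% of all 27456 rat windows, the ETS letters in 18 (25.0%), against 9.22%, and the NRF1 letters in 14 (19.4%), against 4.71%. At least 1 of the 3 motifs was in 65.3% of the member windows, against 18.8% of all windows. Among the 28 windows of members that fell at 3 months of diabetes, 46.4% held the YY1 letters, 35.7% the ETS letters and 21.4% the NRF1 letters, and among the 37 windows of members tested and not called these shares were 40.5%, 21.6% and 21.6%. These sets can share a window, because Uqcrb and Cox6b1 each have a gene ID that fell and a gene ID that was not called. A match is a description of the letters and not a bound site.

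The 6 windows printed here belong to 1 gene of each complex that is described below, plus Atp5if1, which moved the other way. They are examples and do not show that motifs go with the fall. The shares above are the comparison of members that fell with members not called. Capitals mark the motif matches. Ndufc1 (complex I) lies at chr2:137601686-137601985 on the minus strand, with 1 YY1 match. Sdhd (complex II) lies at chr8:59850592-59850891 on the minus strand, with 2 ETS matches. Uqcrq (complex III) lies at chr10:38089929-38090228 on the minus strand, with 1 ETS match. Cox8a (complex IV) lies at chr1:213833574-213833873 on the minus strand, with 2 ETS matches and 1 YY1 match. Atp5me (complex V) lies at chr14:1464610-1464909 on the plus strand, with 1 match of each motif. Atp5if1 (the inhibitor of complex V) lies at chr5:150026628-150026927 on the minus strand, with 0 matches.
Ndufc1: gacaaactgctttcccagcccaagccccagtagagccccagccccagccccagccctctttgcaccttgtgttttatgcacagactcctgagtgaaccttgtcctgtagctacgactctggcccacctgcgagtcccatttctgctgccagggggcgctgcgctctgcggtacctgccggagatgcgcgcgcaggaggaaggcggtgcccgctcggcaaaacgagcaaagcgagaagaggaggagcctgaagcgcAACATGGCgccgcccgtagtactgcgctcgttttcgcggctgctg
Sdhd: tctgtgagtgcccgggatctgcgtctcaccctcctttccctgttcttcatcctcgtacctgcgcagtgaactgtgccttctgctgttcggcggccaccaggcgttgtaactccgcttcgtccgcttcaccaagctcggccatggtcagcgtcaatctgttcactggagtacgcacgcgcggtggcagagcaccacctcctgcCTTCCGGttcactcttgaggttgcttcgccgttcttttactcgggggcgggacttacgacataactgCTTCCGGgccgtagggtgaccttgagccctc
Uqcrq: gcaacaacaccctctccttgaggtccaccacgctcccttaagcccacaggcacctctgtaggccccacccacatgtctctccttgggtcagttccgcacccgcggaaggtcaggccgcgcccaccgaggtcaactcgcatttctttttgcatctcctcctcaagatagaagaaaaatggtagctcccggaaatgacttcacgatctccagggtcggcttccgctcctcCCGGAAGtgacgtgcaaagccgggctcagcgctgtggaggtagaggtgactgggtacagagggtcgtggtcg
Cox8a: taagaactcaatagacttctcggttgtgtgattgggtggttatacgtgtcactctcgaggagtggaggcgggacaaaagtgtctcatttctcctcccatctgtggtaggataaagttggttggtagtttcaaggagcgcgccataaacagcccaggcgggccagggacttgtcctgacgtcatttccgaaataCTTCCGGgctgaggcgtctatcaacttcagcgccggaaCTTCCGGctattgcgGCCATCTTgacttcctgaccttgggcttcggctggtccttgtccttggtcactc
Atp5me: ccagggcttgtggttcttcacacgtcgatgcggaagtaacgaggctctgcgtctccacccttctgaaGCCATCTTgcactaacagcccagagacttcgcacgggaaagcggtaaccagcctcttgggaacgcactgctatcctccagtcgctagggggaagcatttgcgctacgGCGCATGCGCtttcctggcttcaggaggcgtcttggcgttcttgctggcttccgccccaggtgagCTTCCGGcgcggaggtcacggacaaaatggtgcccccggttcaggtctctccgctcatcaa
Atp5if1: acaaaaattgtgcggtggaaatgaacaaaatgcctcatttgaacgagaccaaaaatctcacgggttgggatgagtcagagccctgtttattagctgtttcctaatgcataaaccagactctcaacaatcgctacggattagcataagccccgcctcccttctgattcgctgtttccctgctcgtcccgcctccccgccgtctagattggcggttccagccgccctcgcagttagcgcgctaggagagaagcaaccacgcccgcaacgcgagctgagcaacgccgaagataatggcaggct

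One rat library stood apart from the rest before any comparison. The mean deviation of the 79 tested members from their own means over the 20 rat libraries, on the log2(value + 1) scale, was 0.57 in prediabetic replicate 2, and between 0.01 and 0.17 in the other prediabetic libraries. The same library had the highest score for cytosolic ribosomal protein genes of all 20, at 0.37, and the lowest median correlation with the other rat libraries, at 0.950. Counts of calls that rest on the prediabetic group are therefore given with and without it, as are the single genes whose call it decided. The mean deviation lay between -0.12 and 0.09 at 2 weeks, between -0.27 and -0.08 at 3 months and between -0.25 and 0.23 at 6 months. Every 3-month library was below every prediabetic library, whether or not replicate 2 was counted, whereas the 6-month libraries overlapped with them. In the mice the scores lay between -0.10 and 0.23 after LNA-29 and between -0.12 and 0.08 in controls, with LNA-29 replicate 2 highest. The column sums of the deposited normalised counts were, in units of 1000000, 37.6 to 49.9 in rats and 43.3 to 52.8 in mice, and the depth in reads is unknown.

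**Figure D1:**
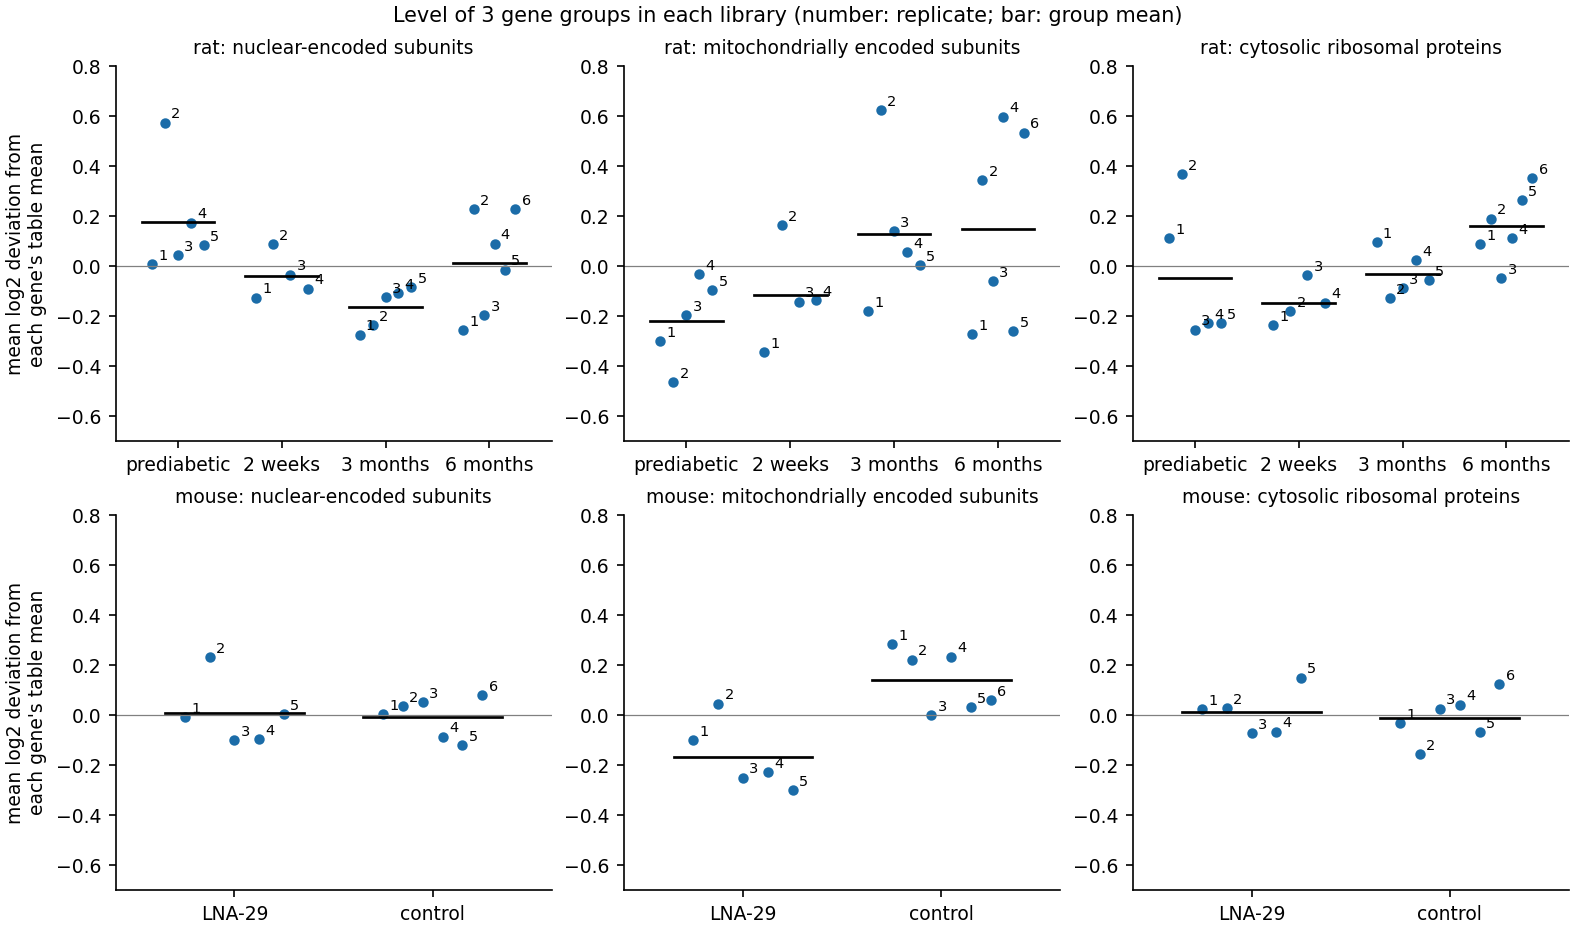
Mean log2 deviation from the gene means (y axis, log2(value + 1) units) of the nuclear subunits, the mitochondrially encoded subunits and the cytosolic ribosomal proteins in each library, by group (x axis), for rats in the upper row and mice in the lower row; numbers are replicates. Prediabetic replicate 2 is at 0.57 for the nuclear subunits, and the 5 libraries from 3 months lie between -0.27 and -0.08, below every prediabetic library.

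At 3 months of diabetes a large part of the nuclear respiratory chain had fallen. Of the 79 tested members, 33 fell and 1 rose relative to prediabetic rats, by limma on log2(value + 1) with Benjamini-Hochberg adjusted p below 0.05 over all genes. Of all 13640 tested genes, 8.72% were lower and 7.76% higher, or 16.5% called. The median log2 change of the members was -0.36, against 0.02 over all genes, and 77 of 79 changes were below 0. In 46 members every 3-month library was below every prediabetic library, which held for 6.6% of all genes. Complex I had the most calls, with 19 of 36 members lower (median -0.37), followed by 6 of 18 for complex V (median -0.34), 3 of 9 for complex III (median -0.30), 3 of 12 for complex IV (median -0.31) and 2 of 4 for complex II (median -0.32). The complexes therefore had similar medians, and no difference between complexes was tested. In whole liver, fewer cells of a type and less RNA per cell cannot be told apart. Without prediabetic replicate 2, 22 members fell (all 22 among the 33) and 1 rose, against 8.05% of all genes lower, with a median of -0.26. By complex these were 13 for I, 1 for II, 2 for III, 2 for IV and 4 for V, where Atp5if1 also rose. Without 3 months replicate 1, 21 fell and 0 rose. The share of all genes in that fit is not given here, so this count has no background beside it. Scaled to parts per 1000000, 27 fell and 1 rose, while 736 of all 13640 genes were lower. The lower share of all called genes was then 39.1%, against 52.9% as deposited.

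At 6 months fewer members were called, although the livers had been diabetic for longer. Of 79 members, 11 fell and 1 rose relative to prediabetic rats, or 15.2% called. Of all tested genes, 10% were lower and 11% higher, or 21.1% called. The median was -0.18, against 0.01 over all genes, and 71 changes were below 0. Non-overlapping lower values were found for 5 members, and for 5.17% of all genes. Of the 11, 9 were in complex I (of 36), 1 in complex II, 0 in complexes III and IV, and 1 among the complex V names. Without prediabetic replicate 2, 8 fell (all 8 among the 11) and 2 rose, with a median of -0.08, while 12.9% of all genes were lower, against 10.1% of the members. By complex, the calls were 7 lower and 1 higher in complex I, 0 in complexes II, III and IV, and 1 lower and 1 higher in complex V. Without 6 months replicate 3, 7 fell and 1 rose, and the share of all genes in that fit is likewise not given here. Scaled to parts per 1000000, 27 fell and 1 rose, while 2053 of all 13640 genes were lower. The lower share of all called genes was then 67.7%, against 47.7% as deposited. The number of members called at 6 months therefore depended on the scaling.

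At 2 weeks no member was called, and neither was any of the 13640 genes, by limma at the same threshold. At an unadjusted p under 0.05, 27 of 79 members passed, against 7.9% of all genes. The median was -0.22, against 0.02 over all genes, 76 changes were below 0, and 17 members had every 2-week library below every prediabetic library, against 2.29% of all genes. Without prediabetic replicate 2 the median was -0.13, with 65 changes below 0 and 17 members without overlap, against 3.44% of all genes. These 3 comparisons share the prediabetic rats, so their values are not independent of one another.

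**Figure D2:**
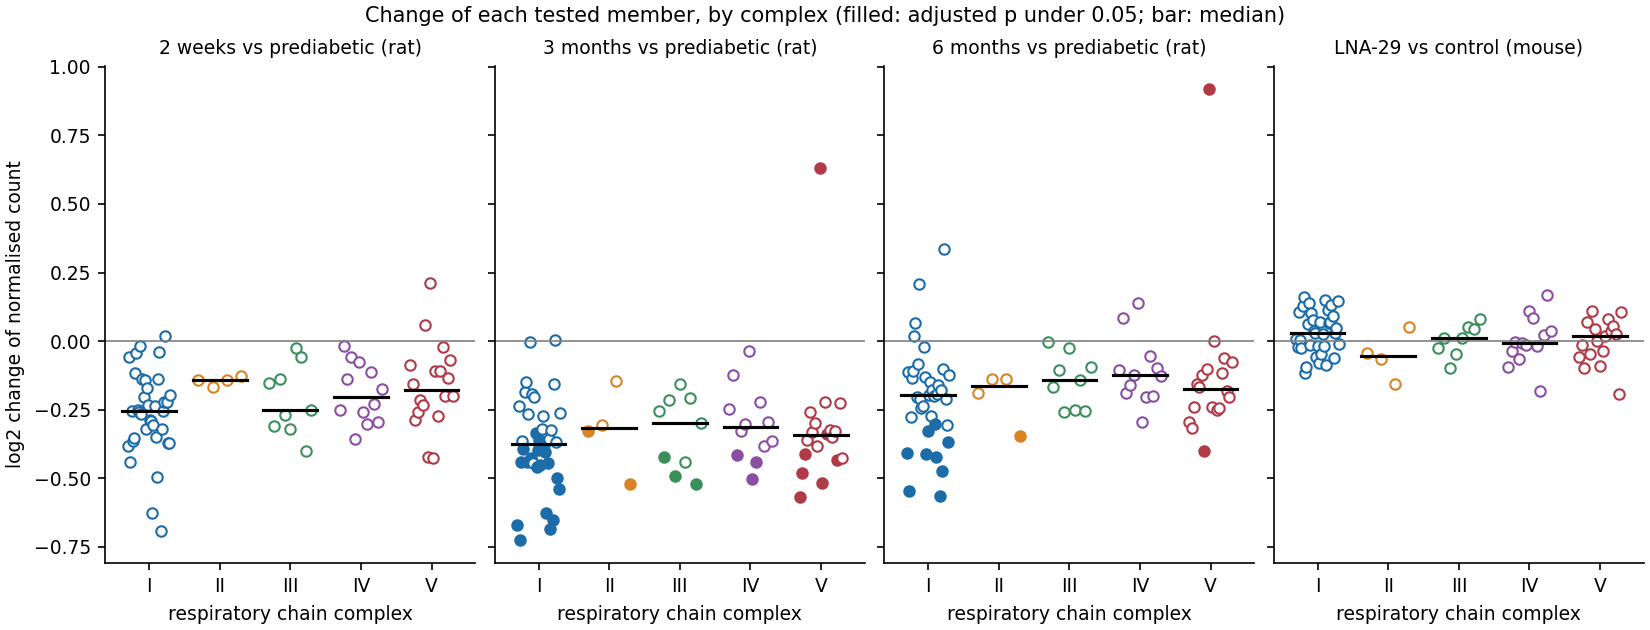
Log2 change of each tested member (y axis, log2(value + 1) units) by complex (x axis), at 2 weeks, 3 months and 6 months of diabetes against prediabetic rats and after LNA-29 against control mice; filled points passed the adjusted p threshold of 0.05 and bars are medians. The medians of the 5 complexes lie between -0.37 and -0.30 at 3 months and between -0.05 and 0.03 after LNA-29.

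The stages of diabetes were also set against one another, which leaves the prediabetic rats out of the contrast. Between 3 months and 2 weeks, 0 of 79 members were called against 2.35% of all genes, and 14 reached an unadjusted p under 0.05, against 18.4%, with a median of -0.12 and 68 changes below 0. In 12 members every 3-month library was below every 2-week library, against 3.86% of all genes. Among members with a mean of at least 50, the largest differences in each complex, all lower at 3 months, were -0.48 for Atp5me (SE 0.17, adjusted p = 0.132), -0.41 for Uqcrb ENSRNOG00000032204 (SE 0.17, adjusted p = 0.198), -0.40 for Ndufc1 (SE 0.14, adjusted p = 0.131), -0.39 for Sdhd (SE 0.11, adjusted p = 0.0724) and -0.28 for Ndufa4 (SE 0.13, adjusted p = 0.25). Each of these 5 had no overlap between the groups, and none passed the threshold. Further names of complex V had differences of similar size, also uncalled, 0.42 for Atp5if1 (adjusted p = 0.256) and -0.36 for Atp5s (adjusted p = 0.164). Between 6 months and 3 months, 0 members were called against 0.0147% of all genes, and 10 reached an unadjusted p under 0.05, against 7.76%, with a median of 0.18 and 77 of 79 changes above 0. The largest in each complex were 0.33 for Ndufa1 (adjusted p = 0.694), 0.17 for Sdhd (adjusted p = 0.64), 0.26 for Uqcrq (adjusted p = 0.632), 0.24 for Cox7b (adjusted p = 0.643) and 0.35 for Atp5f1e (adjusted p = 0.632). Scaled to parts per 1000000, the median of all genes in this contrast was -0.12, against 0.01 as deposited. This scaling shifts members and other genes alike, so the size of the members' differences depends on it. The members' median under that scaling is not given here.

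**Figure D3:**
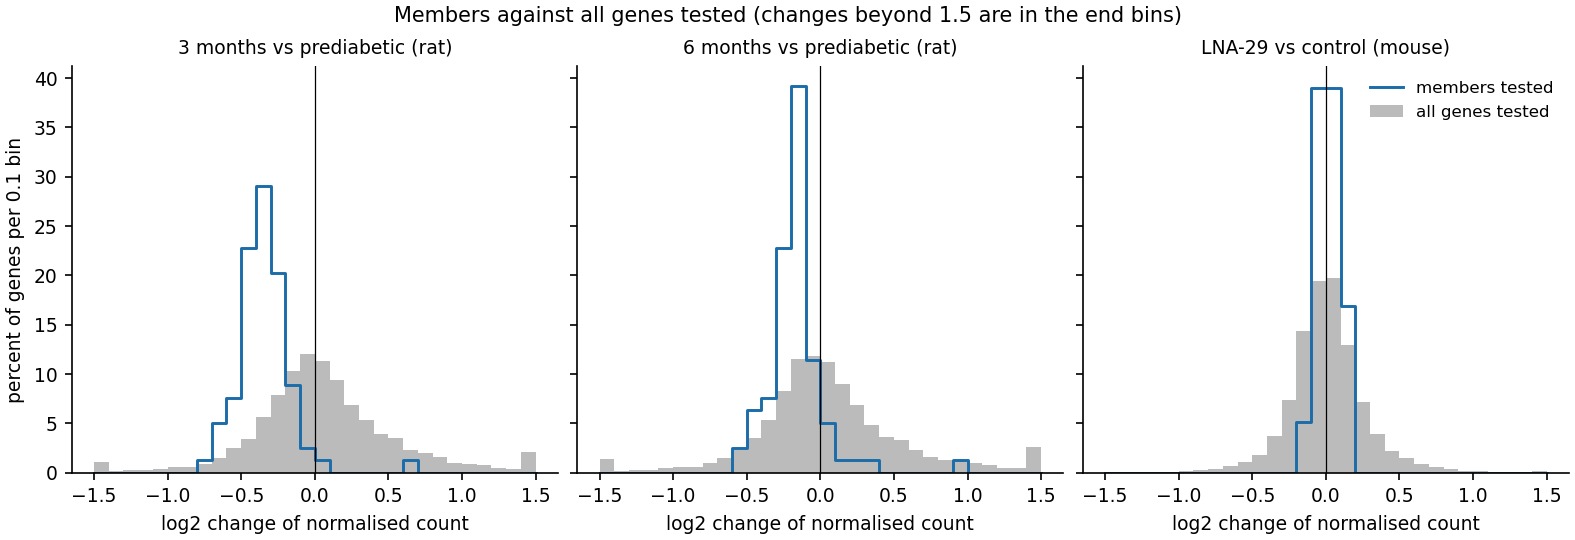
Share of genes (y axis, percent) by log2 change (x axis, bins of 0.1 log2 units, changes beyond 1.5 in the end bins) for the members and for all tested genes, at 3 months, at 6 months and after LNA-29. The members centre on -0.36 at 3 months, -0.18 at 6 months and 0.01 after LNA-29, and all genes on 0.02, 0.01 and 0.00.

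Complex I, the NADH dehydrogenase, has core subunits that carry the flavin, the iron-sulfur clusters or the quinone site and accessory subunits that hold the enzyme together. At 3 months 3 of the 7 tested core members and 16 of the 29 accessory members fell. Ndufa8, an accessory subunit on the intermembrane space side, had 3450, 3554, 3631, 3739 and 5008 normalised counts in prediabetic livers, 2655, 2752, 2853 and 3060 at 2 weeks, 1956, 2171, 2343, 2488 and 2723 at 3 months, and 2195, 2699 and 3076 at 6 months as the lowest, the median and the highest. All diabetic livers of the 3 stages were below all prediabetic livers. The mean was 2336 ± 293 at 3 months and 3877 ± 641 in prediabetic rats (SD, n = 5 each), a log2 change of -0.73 (SE 0.11, limma adjusted p = 0.000534), and without prediabetic replicate 2 the change was -0.63 (adjusted p = 0.00105). At 6 months the change was -0.54 (SE 0.11, adjusted p = 0.00199), and at 2 weeks it was -0.44 (adjusted p = 0.36).

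Ndufv3, an accessory subunit of the module that binds NADH, is listed under 2 gene IDs that may share reads, so each value is uncertain. ENSRNOG00000027593 had 338, 364, 385, 404 and 494 normalised counts in prediabetic livers, 227, 235, 240 and 274 at 2 weeks, 167, 224, 249, 289 and 325 at 3 months, and 207, 277 and 351 at 6 months as the lowest, the median and the highest. The 2-week and 3-month livers were all below the prediabetic livers, and the 6-month livers overlapped with them. The changes were -0.69 at 2 weeks (SE 0.17, adjusted p = 0.294), -0.68 at 3 months (SE 0.16, adjusted p = 0.00905) and -0.56 at 6 months (SE 0.16, adjusted p = 0.0165). ENSRNOG00000001182 was also lower without overlap at 3 months, at 2092 ± 326 against 3342 ± 612 normalised counts in prediabetic rats (SD, n = 5 each), a change of -0.67 (SE 0.12, adjusted p = 0.00195), and it fell by 0.41 on the log2 scale at 6 months (adjusted p = 0.0211), a call lost without prediabetic replicate 4 (adjusted p = 0.0513).

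Ndufc1, a small accessory subunit of the membrane arm, had 1404, 1562, 1661, 1679 and 2430 normalised counts in prediabetic livers, 1321, 1362, 1367 and 1748 at 2 weeks, 952, 1005, 1068, 1207 and 1252 at 3 months, and 1101, 1192 and 1492 at 6 months as the lowest, the median and the highest. The 3-month livers were below all prediabetic and all 2-week livers, while the 6-month livers overlapped with both. It fell by 0.65 on the log2 scale at 3 months (SE 0.13, adjusted p = 0.00335) and by 0.47 at 6 months (SE 0.13, adjusted p = 0.0131). The core members that fell at 3 months, named here after their values were seen, were Ndufs7 (-0.63, adjusted p = 0.00374), which holds the last iron-sulfur cluster before the quinone, Ndufs3 (-0.44, adjusted p = 0.0206) and Ndufs8 (-0.36, adjusted p = 0.0205). Ndufs3 did not pass without prediabetic replicate 2 (-0.34, adjusted p = 0.05) or 3 months replicate 1 (adjusted p = 0.0651), nor did Ndufs8 without 3 months replicate 2 (adjusted p = 0.0572). Ndufs1, the largest iron-sulfur core subunit, had a log2 difference of -0.19 (adjusted p = 0.227), and Ndufv1, which binds NADH and the flavin, of -0.27 (adjusted p = 0.0561). At 6 months Ndufs7 had fallen by 0.42 (adjusted p = 0.021), while Ndufs1 had a log2 difference of -0.24 (adjusted p = 0.095) and Ndufv1 of -0.18 (adjusted p = 0.176).

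Complex II, succinate dehydrogenase, is shared with the citric acid cycle and consists of a catalytic pair, Sdha and Sdhb, and a pair of membrane anchors, Sdhc and Sdhd. At 3 months both anchors fell and neither catalytic subunit was called. Sdhd had 6478, 6899, 6911, 7191 and 8712 normalised counts in prediabetic livers, 6155, 6243, 6466 and 7628 at 2 weeks, 4243, 4765, 4867, 5440 and 5957 at 3 months, and 4935, 5616 and 6432 at 6 months as the lowest, the median and the highest. Every liver of 3 and of 6 months was below every prediabetic liver, and the 2-week livers overlapped with them. The mean was 5054 ± 660 at 3 months against 7238 ± 862 in prediabetic rats (SD, n = 5 each), a change of -0.52 (SE 0.11, adjusted p = 0.00399). At 6 months the change was -0.35 (SE 0.10, adjusted p = 0.023), which did not pass without prediabetic replicate 2 (-0.28, adjusted p = 0.0502), 6 months replicate 3 (-0.31, adjusted p = 0.0529) or 6 months replicate 5 (-0.33, adjusted p = 0.0502).

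Sdhc had 4141, 4871, 5010, 5051 and 5297 normalised counts at 3 months, against 5311, 5685, 6079, 6195 and 7396 in prediabetic livers. The groups did not overlap, although the highest 3-month liver lay close to the lowest prediabetic one. The change was -0.33 (SE 0.10, adjusted p = 0.0356). It did not pass in 7 of 10 fits with 1 library left out, with an adjusted p of 0.0844 without prediabetic replicate 2 and of 0.103 without 3 months replicate 1 at the highest. The others were 3 months replicates 2 (0.0529), 3 (0.053) and 5 (0.0505) and prediabetic replicates 4 (0.0715) and 5 (0.061). Sdha, the flavoprotein that oxidises succinate, had a log2 difference of -0.15 at 3 months (adjusted p = 0.252) and of -0.14 at 6 months (adjusted p = 0.253). Sdhb, the iron-sulfur subunit, had a log2 difference of -0.17 at 2 weeks (adjusted p = 0.788), of -0.30 at 3 months (adjusted p = 0.126) and of -0.14 at 6 months (adjusted p = 0.479).

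**Figure D4:**
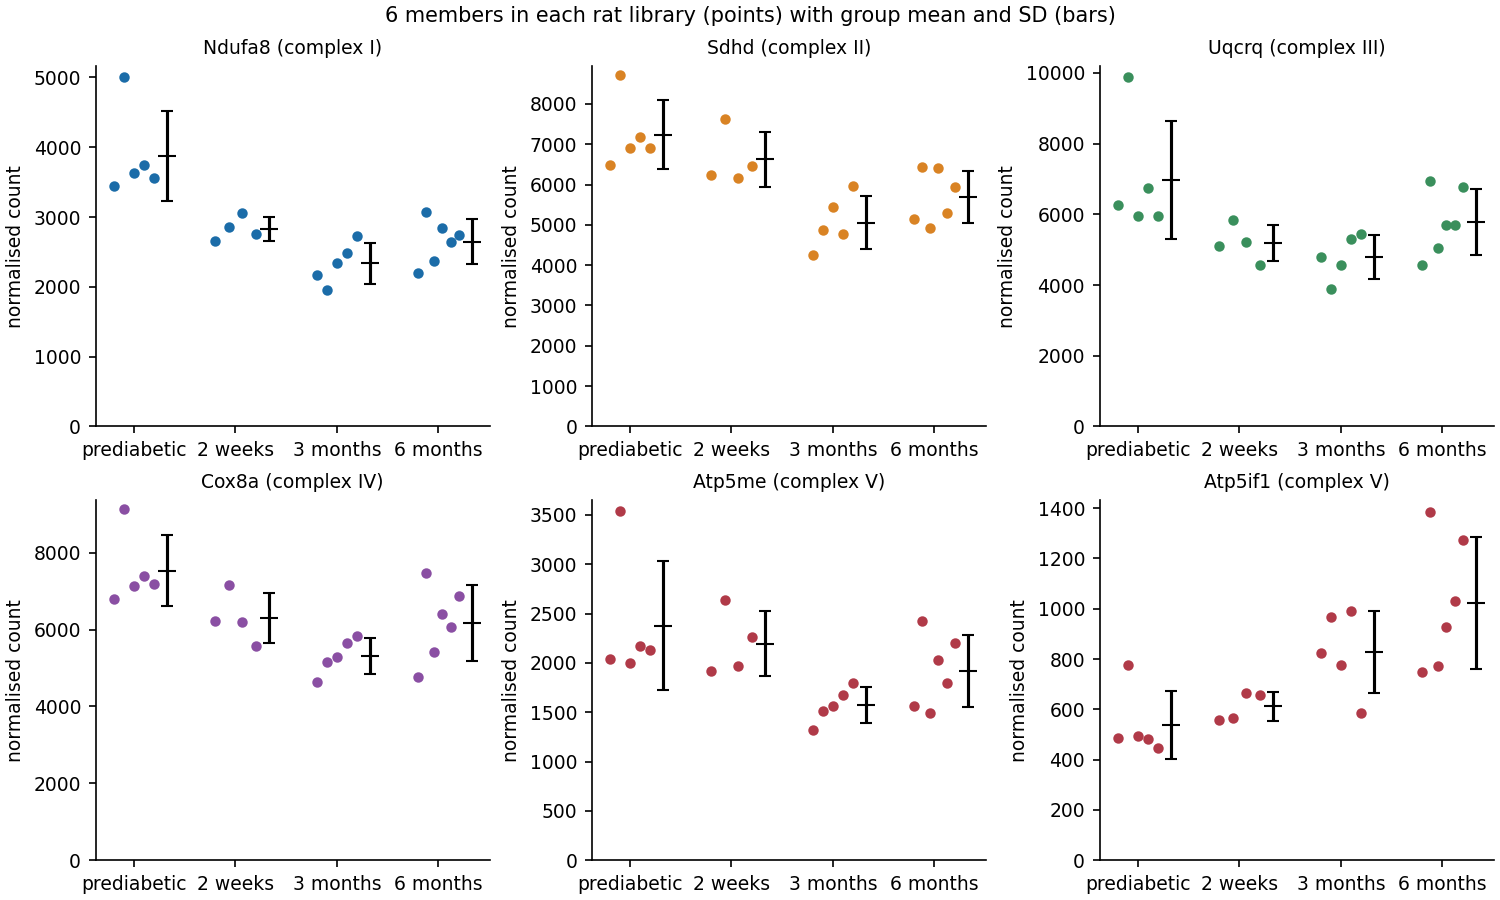
Normalised counts (y axis, from 0) of Ndufa8, Sdhd, Uqcrq, Cox8a, Atp5me and Atp5if1 in each rat library by stage (x axis); points are libraries and bars the mean ± SD. The first 5 genes are lowest on average at 3 months, where Ndufa8 averaged 2336 against 3877 in prediabetic rats, and Atp5if1 is highest at 6 months, at 1023 against 537.

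Complex III passes electrons from ubiquinol to cytochrome c. At 3 months the 3 members that fell were all among the 6 tested small subunits, while neither core protein nor the Rieske iron-sulfur protein Uqcrfs1 was called. Uqcrq, a small subunit at the quinone-binding side, had 5945, 5955, 6274, 6750 and 9888 normalised counts in prediabetic livers, 4577, 5107, 5226 and 5832 at 2 weeks, 3893, 4562, 4803, 5294 and 5429 at 3 months, and 4564, 5697 and 6944 at 6 months as the lowest, the median and the highest. The 2-week and the 3-month livers were all below the prediabetic livers, and the 6-month livers overlapped with them. The change was -0.52 at 3 months (SE 0.14, adjusted p = 0.0181), and -0.39 without prediabetic replicate 2 (adjusted p = 0.0402). It missed the threshold without 3 months replicate 2 (adjusted p = 0.0532). At 2 weeks the change was -0.40 (SE 0.15, adjusted p = 0.515) and at 6 months -0.25 (adjusted p = 0.196).

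Uqcrb, the ubiquinone-binding protein of complex III, has 2 gene IDs that may share reads. ENSRNOG00000024967 had 1596, 1688, 1774, 1850 and 2015 normalised counts at 3 months, against 2106, 2318, 2349, 2392 and 3564 in prediabetic livers. All 3-month livers were lower, a change of -0.49 (SE 0.14, adjusted p = 0.0198), which missed the threshold without 3 months replicate 1 (adjusted p = 0.0544). ENSRNOG00000032204 had a log2 difference of -0.44 (adjusted p = 0.0674). At 6 months, where 0 members of complex III were called, ENSRNOG00000024967 had the largest change, at -0.26 (adjusted p = 0.171). Uqcr11, another small subunit, had 1902, 2165, 2178, 2302 and 2566 normalised counts at 3 months, against 2571, 2572, 2846, 2979 and 4078 in prediabetic livers. The groups lay apart by a narrow margin, and the change of -0.42 (SE 0.13, adjusted p = 0.0322) missed the threshold in 6 of 10 fits with 1 library left out. The adjusted p was then 0.0771 without prediabetic replicate 2, 0.0527 without prediabetic replicate 1 or 4, and 0.0666, 0.0857 and 0.0586 without 3 months replicate 1, 2 or 3. The core protein Uqcrc1 had a log2 difference of -0.32 at 2 weeks (adjusted p = 0.454), -0.16 at 3 months (adjusted p = 0.284) and -0.03 at 6 months (adjusted p = 0.872), and Uqcrfs1 of -0.21 at 3 months (adjusted p = 0.112) and -0.11 at 6 months (adjusted p = 0.416).

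Complex IV, cytochrome c oxidase, holds its catalytic centres in mitochondrially encoded subunits, and the nuclear members surround them. At 3 months 3 of 12 fell, and at 6 months 0 did. Cox8a, the isoform found in most tissues, had 6802, 7128, 7198, 7390 and 9145 normalised counts in prediabetic livers, 5581, 6198, 6233 and 7164 at 2 weeks, 4623, 5152, 5278, 5652 and 5831 at 3 months, and 4768, 6238 and 7473 at 6 months as the lowest, the median and the highest. The 3-month livers were all below the prediabetic livers, and the other stages overlapped with them. The change was -0.50 at 3 months (SE 0.12, adjusted p = 0.00702), -0.43 without prediabetic replicate 2 (adjusted p = 0.0177), and -0.30 at 6 months (adjusted p = 0.0624).

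Cox6b1, which faces the intermembrane space, has 2 gene IDs that may share reads. ENSRNOG00000024309 had 2732, 3020, 3112, 3118 and 3265 normalised counts at 3 months, against 3706, 3791, 3805, 4126 and 5432 in prediabetic livers, with no overlap and a change of -0.44 (SE 0.11, adjusted p = 0.0139). ENSRNOG00000034161 had a log2 difference of -0.38 (adjusted p = 0.0678). Ndufa4 had 5409, 5564, 5566, 5640 and 5871 normalised counts at 3 months, against 6403, 6808, 7016, 7576 and 10131 in prediabetic livers. All 3-month livers were lower and closely spaced, a change of -0.42 (SE 0.12, adjusted p = 0.023) that missed the threshold without prediabetic replicate 2 (-0.31, adjusted p = 0.0521) or 3 months replicate 1 (-0.40, adjusted p = 0.053). Cox5a, which binds near the matrix face, was not called at any stage, and its sign depended on 1 library. Its log2 difference was -0.07 at 2 weeks, -0.03 at 3 months (adjusted p = 0.905) and 0.14 at 6 months (adjusted p = 0.552), and without prediabetic replicate 2 it was 0.06, 0.10 and 0.28, none called. Cox5b, a zinc-binding subunit, had a log2 difference of -0.36 at 2 weeks (SE 0.13, adjusted p = 0.515), -0.30 at 3 months (adjusted p = 0.0906) and -0.12 at 6 months (adjusted p = 0.478), and Cox6a1, the isoform found in liver, of -0.25 at 3 months (adjusted p = 0.191) and -0.11 at 6 months (adjusted p = 0.573).

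The isoforms known from heart and skeletal muscle, from testis or from low oxygen were near the floor in these livers and were not tested in rats. Their means over the 20 rat libraries were 1.20 normalised counts for Cox8b, 0.419 for Cox6a2 and 1.02 for Cox7a1, the muscle isoforms, 6.99 for Cox6b2, 2.05 for Ndufa4l2, and 0 for Cox7b2 and Cox8c. In mice the means were 0.190 for Cox8b, 0.709 for Cox6a2, 8.73 for Cox7a1, and 0 for Cox7b2 and Cox8c, all untested. Mouse Cox6b2 and Ndufa4l2 passed the filter, with means of 19.3 and 17.5.

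Complex V, the ATP synthase, has an F1 head that makes ATP, a ring of c subunits that turns, a peripheral stalk that holds the head and small subunits in the membrane. At 3 months 2 of 5 tested F1 members, 1 of 3 c subunit genes, 1 of 4 stalk members and 2 of 4 membrane members fell. Atp5me, the membrane subunit e, had 1994, 2039, 2131, 2172 and 3541 normalised counts in prediabetic livers, 1917, 1971, 2262 and 2635 at 2 weeks, 1321, 1508, 1560, 1677 and 1794 at 3 months, and 1487, 1916 and 2421 at 6 months as the lowest, the median and the highest. The 3-month livers were below all prediabetic and all 2-week livers. The change was -0.57 at 3 months (SE 0.16, adjusted p = 0.0201), -0.41 without prediabetic replicate 2 (adjusted p = 0.0438), and it missed the threshold without 3 months replicate 1 (-0.51, adjusted p = 0.0586). At 6 months the change was -0.29 (adjusted p = 0.178). The other membrane member that fell, named after its values were seen, was Atp5mg, subunit g (-0.43, adjusted p = 0.0274), whose call was lost without prediabetic replicate 2 (-0.32, adjusted p = 0.066), prediabetic replicate 4 (adjusted p = 0.0566) or 3 months replicate 1 (adjusted p = 0.0731).

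Atp5f1d, the delta subunit of the rotating central stalk, had 4610, 4777, 5155, 5251 and 6869 normalised counts in prediabetic livers, 3589, 3734, 3999 and 4425 at 2 weeks, 2864, 3569, 3775, 3810 and 4619 at 3 months, and 3621, 4583 and 5863 at 6 months as the lowest, the median and the highest. The 2-week livers were all below the prediabetic livers, and 1 liver at 3 months overlapped with them. The change was -0.52 at 3 months (SE 0.14, adjusted p = 0.0158) and -0.43 at 2 weeks (SE 0.15, adjusted p = 0.496). Atp5pf, coupling factor 6 of the peripheral stalk, had 2697, 2857, 2913, 2960 and 3095 normalised counts at 3 months, against 3522, 3619, 3786, 3935 and 5694 in prediabetic livers. The groups did not overlap, and the change was -0.48 (SE 0.13, adjusted p = 0.0161). Of the c subunit genes, whose proteins are the same after processing, Atp5mc3 fell by 0.41 (adjusted p = 0.0124), while Atp5mc1 had a log2 difference of -0.38 (adjusted p = 0.0633) and Atp5mc2 of -0.22 (adjusted p = 0.131).

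Atp5f1a, the alpha subunit of the head, averaged 19355 ± 2313 normalised counts at 3 months and 24369 ± 1966 in prediabetic rats (SD, n = 5 each). The groups overlapped, and the change was -0.34 (adjusted p = 0.0264). It missed the threshold without prediabetic replicate 2 (adjusted p = 0.0512), 4 (0.0644) or 5 (0.0601), and without 3 months replicate 1 (0.081) or 2 (0.0556). Atp5f1b, the catalytic beta subunit, had a log2 difference of -0.26 at 3 months (adjusted p = 0.154) and of -0.17 at 6 months (adjusted p = 0.334).

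Atp5if1 encodes the small inhibitor that blocks ATP hydrolysis by the synthase when the proton gradient fails, and it moved against the subunits. It had 446, 483, 488, 493 and 776 normalised counts in prediabetic livers, 557, 564, 658 and 666 at 2 weeks, 587, 776, 824, 969 and 989 at 3 months, and 747, 980 and 1383 at 6 months as the lowest, the median and the highest. The 6-month livers were all above the 2-week livers, and replicate 2 was the only prediabetic liver within the 6-month range. The mean was 1023 ± 261 at 6 months (SD, n = 6) against 537 ± 135 in prediabetic rats (SD, n = 5), a change of 0.92 (SE 0.18, limma adjusted p = 0.00149), and 1.06 without prediabetic replicate 2 (adjusted p = 0.000411). At 3 months it rose by 0.63 (SE 0.18, adjusted p = 0.0239), or by 0.77 without prediabetic replicate 2 (adjusted p = 0.00796). The 3-month call was lost without 3 months replicate 1 (adjusted p = 0.0505), 2 (0.0633) or 4 (0.0565) and without prediabetic replicate 4 (0.0568) or 5 (0.06). At 2 weeks the change was 0.21 (adjusted p = 0.813).

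Between 6 months and 2 weeks 2 of 79 members were called, against 8.82% of all genes, with a median of 0.06. Atp5if1 rose by 0.71 (SE 0.19, adjusted p = 0.0255), a call lost in 5 of 10 fits with 1 library left out, without 2 weeks replicates 1 (adjusted p = 0.0792) or 2 (0.0876) and without 6 months replicates 2 (0.0511), 5 (0.0532) or 6 (0.0562). Atp5s, named for factor B and not itself a subunit, fell by 0.46 (SE 0.13, adjusted p = 0.0364). Its counts were 239, 243, 250, 260 and 261 in prediabetic livers, 242, 248, 276 and 280 at 2 weeks, 181, 189, 204, 224 and 226 at 3 months, and 143, 185 and 250 at 6 months as the lowest, the median and the highest. The 6-month livers overlapped with both earlier groups, whereas the 3-month livers did not overlap with the prediabetic ones. Against prediabetic rats it fell by 0.40 at 6 months (SE 0.12, adjusted p = 0.0271) and had a log2 difference of -0.30 at 3 months (adjusted p = 0.122). The 6-month call was lost without 6 months replicates 1 (adjusted p = 0.0603), 3 (0.0546) or 5 (0.0632) or prediabetic replicate 3 (0.0549), and the one against 2 weeks in 7 of 10 fits, with adjusted p between 0.0562 and 0.115, without 2 weeks replicates 1, 2 or 4 or 6 months replicates 1, 3, 5 or 6. Among members of the other complexes with a mean of at least 50, the largest differences between 6 months and 2 weeks, none called, were those of Ndufa1 (0.32, adjusted p = 0.479), Sdhd (-0.22, adjusted p = 0.209), Uqcrc1 (0.29, adjusted p = 0.071) and Cox5b (0.24, adjusted p = 0.229).

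Other mitochondrial genes were set beside the members from fixed lists. For scale, 8.72% of all tested genes were lower and 7.76% higher at 3 months, and 10% and 11% at 6 months. Without prediabetic replicate 2, 8.05% of all genes were lower at 3 months and 12.9% at 6 months. In that fit 2082 and 3573 genes were called in either direction. The subunits encoded in mitochondrial DNA did not fall with the nuclear ones. At 3 months 0 of 12 were called, with a median log2 change of 0.37, and at 6 months 3 of 12 rose, with a median of 0.34. These were Mt-co3 (0.67, adjusted p = 0.022), Mt-co2 (0.66, adjusted p = 0.0288) and Mt-nd6 (0.60, adjusted p = 0.0488). Without prediabetic replicate 2 the counts were also 0 and 3, with medians of 0.26 and 0.24. With 1 library left out, the call was lost in 1 of 11 fits for Mt-co3 (without prediabetic replicate 5, adjusted p = 0.0535), in 6 for Mt-co2 (without 6 months replicates 2 or 6 or prediabetic replicates 1, 3, 4 or 5, adjusted p up to 0.0714) and in 7 for Mt-nd6 (without the same libraries or 6 months replicate 4, adjusted p up to 0.108). Their summed level was 3150300 to 4720700 normalised counts at 3 months and 2955500 to 4848200 at 6 months, against 2892500 to 3271700 in prediabetic rats. Among nuclear subunits that the choice by name left out, Ndufab1, the acyl carrier protein of complex I, fell at 3 months (-0.52, adjusted p = 0.00971) and at 6 months (-0.34, adjusted p = 0.0488), and the other 4 of the 5 tested were not called, Cyc1 with a difference of -0.35 (adjusted p = 0.055) and Cox4i1 with one of -0.16 (adjusted p = 0.382) at 3 months. The 6-month call of Ndufab1 was lost without prediabetic replicate 2 (-0.23, adjusted p = 0.114) and in 6 further fits of 11, without 6 months replicates 1, 3 or 5 or prediabetic replicates 3, 4 or 5.

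Of 45 assembly factors, which build the complexes, 13 fell at 3 months (median -0.25) and 10 at 6 months (median -0.22), and 0 rose, and without prediabetic replicate 2 these were 15 and 12 (medians -0.22 and -0.15). Ttc19, which acts in complex III, averaged 577.5 ± 47.6 normalised counts at 3 months against 997 ± 92.6 in prediabetic rats (SD, n = 5 each), a change of -0.79 (SE 0.13, adjusted p = 0.000835), and it had a log2 difference of -0.85 at 6 months (adjusted p = 0.000173). Lyrm7, a chaperone of the Rieske protein, had a log2 difference of -0.87 at 3 months (adjusted p = 0.0206) and -0.88 at 6 months (adjusted p = 0.0124). Uqcc2, another factor of complex III, had one of -0.65 at 3 months (adjusted p = 0.00436). The 3-month call of Lyrm7 was lost without 3 months replicate 3 (adjusted p = 0.0576) or 4 (0.0542). In the citric acid cycle 4 of 17 genes fell and 1 rose at 3 months, and 7 fell and 1 rose at 6 months (6 and 1 without prediabetic replicate 2, with the 3-month counts as before). The riser was Idh2, the mitochondrial NADP-dependent isocitrate dehydrogenase, at 0.93 and 1.26 (adjusted p = 0.00784 and 0.000473), while Pdhb, a subunit of pyruvate dehydrogenase, fell by 0.63 and by 0.73 (adjusted p = 0.00334 and 0.000535).

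Of 18 regulators of mitochondrial biogenesis, 3 fell and 1 rose at 3 months, and 3 fell and 2 rose at 6 months, and without prediabetic replicate 2 these were 2 and 1, and 4 and 2. Nrf1, whose motif was searched above, rose by 0.38 at 3 months (adjusted p = 0.0428) and by 0.35 at 6 months (adjusted p = 0.0412), Sirt3, a mitochondrial deacetylase, rose by 0.69 at 6 months (adjusted p = 0.00107), and Polg2, a subunit of the mitochondrial DNA polymerase, had a log2 difference of -1.31 at 3 months (adjusted p = 0.0318) and -1.19 at 6 months (adjusted p = 0.0342). The call was lost with 1 library left out in 7 of 10 fits at 3 months and 8 of 11 at 6 months for Nrf1 (adjusted p up to 0.113 and 0.0945), and in 7 and 5 for Polg2 (adjusted p up to 0.0841 and 0.0817). For Nrf1 these were the fits without 3 months replicates 1, 3 or 4 or prediabetic replicates 2, 3, 4 or 5, and at 6 months without 6 months replicates 1, 2, 3, 5 or 6 or prediabetic replicates 3, 4 or 5. For Polg2 they were those without 3 months replicates 2, 3 or 4 or prediabetic replicates 1, 2, 4 or 5, and at 6 months without 6 months replicates 2 or 3 or prediabetic replicates 1, 4 or 5. Of 20 genes for mitochondrial import and carriers 4 fell at 3 months and 1 at 6 months, and without prediabetic replicate 2 there were 2 lower and 1 higher at 3 months, and 1 lower and 2 higher at 6 months. Of 40 mitochondrial ribosomal proteins 5 fell at 3 months (median -0.22), and 2 fell and 1 rose at 6 months (median -0.12), and without prediabetic replicate 2 there were 3 lower at 3 months (median -0.14), and 1 lower and 2 higher at 6 months (median -0.0089). Of 58 cytosolic ribosomal proteins 0 were called at 3 months and 13 rose at 6 months, and without prediabetic replicate 2 there was 1 higher at 3 months, and there were 51 higher and 1 lower at 6 months. In that fit 3573 of all genes were called at 6 months, against 2875 with all libraries.

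Markers of other liver cells moved in the same contrasts, where 7.76% of all tested genes were higher at 3 months and 11% at 6 months. The lower shares were 8.72% and 10%, and lists with few calls can lie near these shares. Of 12 Kupffer cell and macrophage markers 11 rose at 3 months and 11 at 6 months, with summed levels of 25929 to 58813 and 26412 to 77416 normalised counts, against 17739 to 26213 in prediabetic rats. Of 12 stellate cell and fibroblast markers 6 and 5 rose, with sums of 7688 to 10979 and 6280 to 9905, against 4009 to 6967, and of 10 lymphocyte and neutrophil markers 4 and 4 rose, with sums of 1529 to 4898 and 1338 to 4105, against 1025 to 1263. Of 9 endothelial markers 2 and 2 rose, of 9 bile duct markers 1 and 5, of 5 red blood cell markers 1 and 1, and of 3 tested adipocyte markers 0 and 2, with Lep, Plin1 and Ucp1 at 0. Hepatocyte markers, which define the labelled tissue, were high in all libraries, and of 11 tested 2 fell at 3 months, and 1 fell and 1 rose at 6 months, with sums of 4226400 to 7197100 and 5551300 to 9577700, against 5077000 to 6913400. Striated muscle markers were near 0, with sums of 9.22 to 63.7 at 3 months, 14.4 to 30.3 at 6 months and 12.1 to 32.6 in prediabetic rats, and Mb at 0. The only tested pancreatic acinar marker was not called at 3 months and fell at 6 months, with or without prediabetic replicate 2. Without prediabetic replicate 2, 12 and 12 Kupffer cell, 5 and 5 stellate cell, 4 and 3 lymphocyte and neutrophil, 2 and 3 endothelial, 1 and 5 bile duct, 1 and 1 red blood cell and 1 and 2 adipocyte markers rose at 3 and at 6 months, 1 hepatocyte marker fell at 3 months, and 1 fell and 2 rose at 6 months. In that fit 2082 of all genes were called at 3 months and 3573 at 6 months, with 8.05% and 12.9% of all genes lower. The shares given at the start of this paragraph are from the fit with all libraries. The part of these markers in the change of the subunits was not tested.

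After LNA-29 no nuclear subunit was called in mouse liver. Of 77 tested members 0 were called by limma, against 2.43% of all 14596 genes, and 2 reached an unadjusted p under 0.05, against 19.2% of all genes. The median log2 change was 0.01, against 0.00 over all genes, with 43 changes above 0 and a range from -0.19 to 0.17. The LNA-29 and control livers overlapped for each of the 77 members, while 2.4% of all genes were higher and 1.54% lower without overlap. The medians by complex were 0.03 for complex I, -0.05 for complex II, 0.01 for complex III, -0.01 for complex IV and 0.02 for complex V. A p that misses the threshold does not show that the genes were unaffected.

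Among members with a mean of at least 50, the largest differences in each complex were small. Ndufa1, a membrane accessory subunit, had 1367, 1422, 1442, 1596 and 1776 normalised counts after LNA-29, against 1193, 1370 and 1465 in controls as the lowest, the median and the highest, a change of 0.16 (SE 0.08, adjusted p = 0.28). The groups overlapped, with 2 LNA-29 livers above all controls. Sdha averaged 16219 ± 1539 after LNA-29 (SD, n = 5) and 18092 ± 1659 in controls (SD, n = 6), a change of -0.16 (SE 0.08, adjusted p = 0.305). Uqcrc1 had a log2 difference of -0.10 (adjusted p = 0.594) and Cox7a2, a complex IV subunit, one of 0.11 (adjusted p = 0.479). Atp5sl, an assembly protein named for its likeness to Atp5s, was counted with complex V by its name and is not a subunit of it. It had 835, 980, 997, 1090 and 1109 normalised counts after LNA-29, against 1042, 1126 and 1270 in controls as the lowest, the median and the highest. The groups overlapped, with a log2 difference of -0.19 (adjusted p = 0.249). The 2 members with an unadjusted p under 0.05 were Atp5sl and Ndufa2 (0.13, adjusted p = 0.256). Ndufa2 was named after its values were seen.

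Of the 32 symbols that fell in rats at 3 months, 31 had a tested mouse counterpart, of which 0 were called. Their log2 differences lay between -0.11 and 0.14, with a median of 0.03 and 19 above 0. Among those described above, the differences were 0.03 for Ndufa8, 0.03 for Ndufv3, 0.09 for Ndufc1, -0.09 for Ndufs7, 0.0033 for Ndufs3, 0.14 for Ndufs8, 0.05 for Sdhc, -0.04 for Sdhd, 0.05 for Uqcrq, 0.01 for Uqcrb, -0.03 for Uqcr11, 0.09 for Cox8a, -0.02 for Cox6b1 and -0.01 for Ndufa4. In complex V they were 0.06 for Atp5k (Atp5me in rat), -0.01 for Atp5d (Atp5f1d), 0.11 for Atp5j (Atp5pf), 0.04 for Atp5l (Atp5mg), -0.05 for Atp5g3 (Atp5mc3) and -0.09 for Atp5a1 (Atp5f1a). Atp5s, which was called in rats only at 6 months, had 0.03. Of the members followed in every comparison, the other differences were 0.00 for Atp5b, -0.10 for Atp5g1, 0.10 for Atp5g2, -0.08 for Ndufs1, -0.06 for Ndufv1, -0.06 for Sdhb, 0.01 for Uqcrfs1, -0.09 for Cox5a, 0.04 for Cox5b, 0.02 for Cox6a1, 0.17 for Cox6b2 and -0.18 for Ndufa4l2. None of these was called. The inhibitor, listed as Atpif1 and outside the choice by name, averaged 266 ± 44.8 normalised counts after LNA-29 (SD, n = 5) and 231 ± 44.0 in controls (SD, n = 6), a change of 0.21 (SE 0.15, adjusted p = 0.484). The mice and the rats were normalised in separate tables, and no test between them was made.

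Beside the members, 1 of 13 mitochondrially encoded subunits fell after LNA-29, mt-Nd4l (-0.44, adjusted p = 0.0344), with a median of -0.29 for the list and sums of 2747400 to 3591700 normalised counts, against 3371100 to 4003700 in controls. Of 47 assembly factors, Cox11, which delivers copper to complex IV, rose (0.38, adjusted p = 0.0492), and Atpaf2, which assembles the F1 head, fell (-0.34, adjusted p = 0.0358). With 1 library left out these calls were lost in 7 of 11 fits for mt-Nd4l (adjusted p up to 0.0937), in 10 for Cox11 (up to 0.108) and in 8 for Atpaf2 (up to 0.0951). These were the fits without LNA-29 replicates 1, 3, 4 or 5 or control replicates 1, 2 or 6 for mt-Nd4l, without any library other than control replicate 1 for Cox11, and without LNA-29 replicates 1, 3, 4 or 5 or control replicates 1, 2, 3 or 5 for Atpaf2. Of the other mitochondrial and ribosomal lists, 0 members were called. Among the marker lists 1 of 11 stellate cell, 1 of 10 endothelial and 1 of 2 tested pancreatic acinar markers rose, and 0 of 12 Kupffer cell, 0 of 10 hepatocyte, 0 of 7 bile duct, 0 of 9 lymphocyte and neutrophil, 0 of 6 red blood cell and 0 of 2 adipocyte markers were called.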

How the data were processed

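Liver RNA was measured by polyA+ sequencing (Illumina TruSeq, per the labels' protocols) in 20 rat and 11 mouse libraries. The values are a signal per gene that the authors deposited as normalised counts, 1 table per species. They are not whole numbers: no raw counts or depths were recovered, so no count model was used. The submitters' processing notes name STAR, Salmon and DESeq2, and as genome builds rn6, hg19, mm10 and mm9, with no role or version for any. The small RNA libraries of the series were not used here.

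From the deposited values, log2(value + 1) was fitted with limma 3.58.1 (R 4.3.3, variance trend), all groups of a table together, for genes with a mean of at least 10. P-values were adjusted by Benjamini-Hochberg over all genes tested, called at 0.05. Groups do not overlap where every value of one is beyond every value of the other. Changes of low genes are understated on this scale. The test was checked on simulated data. The labels do not state that replicate numbers pair the samples, and the main fit did not use them. Members reported by name were, per comparison and complex, up to 3 called members per direction of largest change with a mean of at least 50, else the member of largest change, plus fixed subunits and isoforms. Members and lists were chosen with earlier results of these data known. Processed pseudogenes can share reads with members. Alternatives were the pseudocount (0.5, 5), the filter, the scaling (parts per 1000000, median ratio), the variance trend, the replicate block, fits of only the groups compared, and leaving out each library. Promoters come from RefSeq GRCr8, which is not among the builds named.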

Additional observations from a re-analysis of the deposited data

Results flagged for a closer look

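In 26 of 194 groups of 4 to 6 samples, 1 library lay farther from the rest than Dixon's 95% value. Chance gives about 1 in 20 for independent groups. These groups hold mostly named members measured in the same libraries, so that rate cannot be used as a measure here. The mean deviation of all tested members did not pass this value in any group. In prediabetic rats it was the highest library, replicate 2, in 17 cases: Atp5me (3541 normalised counts), Cox6a1 (10041), Atp5pf (5694), Ndufa8 (5008), Atp5if1 (776), Atp5f1d (6869), Uqcr11 (4078), Cox5a (7187), Cox8a (9145), Cox6b1 (5432 and 726 for its 2 gene IDs), Uqcrb (3564 and 1576 for its 2 gene IDs), Ndufc1 (2430), Uqcrq (9888), Atp5f1e (6229) and Cox7b (7875). At 2 weeks it was replicate 2, highest for Ndufc1 (1748), Atp5f1e (4313) and Cox7b (7192). After LNA-29 it was replicate 2, highest for Sdhb (7656), Atp5g3 (11054), Cox8a (6010) and Ndufv1 (6077), and replicate 4, lowest for Ndufa4l2 (9.49). Among control mice it was replicate 5, lowest for Ndufv1 (4112). Counts of calls without prediabetic replicate 2 are given beside the results.

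The change against prediabetic rats differed between 6 months and 2 weeks, by the limma test of 6 months against 2 weeks, for Atp5if1 (0.71) and for Atp5s (-0.46).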

How the results depend on the processing

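The number of members called at 3 months against prediabetic rats (34) was 24 to 48 under the settings other than leaving out a library, and 21 to 38 with 1 library left out. At 6 months against prediabetic rats (12) it was 28 scaled to parts per 1000000, 20 with the replicate block, and 8 to 13 with 1 library left out. At 6 months against 2 weeks (2) it was 1 without a filter, 5 scaled to parts per 1000000, 1 with the replicate block, 1 with only the 2 groups in the fit, and 0 to 2 with 1 library left out. At 3 months against 2 weeks (0) it was 0 to 1, with 1 call without 3 months replicate 5. At 2 weeks against prediabetic rats, at 6 months against 3 months and after LNA-29 it was 0 under each alternative. The replicate block called 48 members at 3 months. Of all genes, 2248 were called at 3 months against prediabetic rats as deposited, and 1880 scaled to parts per 1000000. For 6 months against prediabetic rats these were 2875 and 3033. For the replicate block and most fits without a library, the share of all genes is not given here. Those counts of members therefore do not show whether the members moved apart from the whole table. Deviations from the group means correlated between -0.184 and 0.216 in rats and between -0.0769 and 0.125 in mice for same-numbered libraries. Libraries of different number were not compared, so these values cannot exclude a pairing or a shared batch. Scaling to parts per 1000000 moved the median of all genes to -0.14 at 6 months against 2 weeks and to -0.12 at 6 months against 3 months, and the lower share of all called genes was then 85.1%, against 47.1% as deposited, in the first, and 20%, against 35.5% as deposited, after LNA-29. Of 2168 alternative values of 114 named results, 2047 kept direction and side of the threshold, 57 were no longer called, 23 were newly called and 41 changed sign, 0 of them for a called result. Scaled to parts per 1000000, the sign changed for Cox5a at 2 weeks (0.0042) and 3 months (0.028), Atp5mc2 at 6 months (-0.096), and in mice Cox6b1 (0.022) and Ndufa4 (0.031). With the replicate block it changed for Atp5mc2 at 6 months (-0.023), and in mice Cox6b1 (0.0079) and Ndufa4 (0.016). With 1 library left out it changed within -0.17 to 0.062 for Cox5a at 2 weeks and -0.099 to 0.10 at 3 months, and at 6 months within -0.082 to 0.026 for Uqcrc1, -0.040 to 0.094 for Atp5mc2 and -0.16 to 0.0069 for Cox6a1. In mice it did within -0.078 to 0.027 for Ndufa4, -0.062 to 0.049 for Atp5b, -0.058 to 0.053 for Uqcrfs1, -0.048 to 0.054 for Cox6a1, -0.019 to 0.072 for Cox5b and -0.080 to 0.019 for Cox6b1. The cause of these shifts was not tested. Unknown read depth limits what can be said of genes with few counts.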
